A study of Mus musculus with 5 samples.

Results

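The genes described here encode the hemidesmosome and its ligand laminin-332. Collagen XVII (Col17a1), integrin α6 (Itga6), integrin β4 (Itgb4), the plakin dystonin (Dst) and the tetraspanin Cd151 belong to the adhesion complex, and Lama3 and Lamb3 encode the α3 and β3 chains of laminin-332. They were chosen by name as 7 of the 23173 genes listed across the deposited tables, with earlier results of these data known.

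Hemidesmosomes anchor epithelial cells to the basement membrane. Integrin α6β4 and collagen XVII span the plasma membrane and bind laminin-332 outside the cell, while dystonin (in its epithelial form BP230) and plectin tie the complex to keratin filaments, and Cd151 associates with laminin-binding integrins. In stratified epithelium the complete complex is a feature of basal cells. In simple intestinal epithelium a smaller form with integrin α6β4 and plectin is known, and endothelial cells use α6 integrins and laminins with other chains.

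Colon tumors were induced with azoxymethane and dextran sulfate sodium (AOM/DSS) in wild-type (WT) mice, which were then given 5-fluorouracil and irinotecan (5FU+Irinotecan). Whole-tumor single cells were captured by inDrop, a droplet method that counts unique molecular identifiers (UMIs), on day 1 (2 libraries), day 3 (1 library) and day 6 (1 library) after the last cycle. One further library came from the colon of an untreated WT mouse, prepared by a dissociation that enriches stroma, and is called normal colon below. All 4 tumor libraries carried both drugs, so no untreated tumor was compared here, and the mice were on C57BL/6J or mixed C57BL/6J and 129 backgrounds.

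Quality filters left 748 and 2403 cells on day 1 (replicates 1 and 2), 1419 cells on day 3, 2826 on day 6 and 1095 in normal colon. Deposited totals ranged from 5132360 to 16904947 UMIs per library, and median depth from 2903 to 3601 UMIs per cell. Library structure crossed the days: one early library (replicate 1 of day 1) and one late library (day 3) had a single index, and the other early, the other late and the normal colon libraries had a dual index. Between 4 and 41 cell barcodes were shared by any 2 libraries.

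Cells were grouped by clusters built without the 7 genes and their related lists, and clusters were named from marker genes. Squamous-like cells, marked by keratins such as Krt5, Krt14 and Krt17, numbered 54 and 185 in replicates 1 and 2 of day 1, 270 on day 3 and 736 on day 6, and every run of 4 values below follows that order. In each squamous cluster 6 to 11 of the squamous markers stood out, and 1 squamous cluster (151 cells of day 6) was named by a looser rule given below. Columnar cells here join columnar, goblet-like and Paneth-like clusters and numbered 520, 1413, 996 and 1411, and the normal colon held 397 columnar and goblet-like cells. Blood endothelial-like cells were few, at 12, 61, 61 and 14 in the tumors and 48 in normal colon. Different clusters supplied the squamous class in different libraries: 1 cluster held 42 of the 54 and 269 of the 270 cells of the single-index libraries, another held 171 of the 185 cells of day 1 replicate 2, and day 6 was spread over 4 clusters. The columnar clusters were likewise mostly of 1 library each. One led by Mt4 and Wif1, called led by Wnt target genes below, held 147, 224, 20 and 16 cells. Its columnar name is weak: 3 columnar markers stood above non-epithelial cells, and their mean over all columnar markers was −0.144 log2. Without it the columnar sum of day 1 replicate 1 went from 3933951 to 2026296 UMIs, so it weighs mainly on the early libraries.

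Levels are given as UMIs per 1000000 UMIs of the summed cells (CPM). Droplets also take up free RNA, so levels in neutrophil-like cells, which are not epithelial, are given beside them.

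Col17a1 showed the sharpest restriction to squamous cells. It measured 364, 546, 223 and 157 CPM in squamous cells of the 4 tumor libraries, against 1.53, 4.81, 18.4 and 8.85 CPM in columnar cells. Every squamous value stood above every columnar value. The columnar values rested on 6, 61, 90 and 80 UMIs. All immune-like cells summed, with the neutrophil-like ones, held 2.15, 12.4, 13.0 and 18.2 CPM. By value alone, that was above the columnar level in each library except day 3. Neutrophil-like cells alone held 6.55, 15.1, 16.2 and 26.9 CPM, from 1, 14, 1 and 1 UMIs. For them only day 1 replicate 2 allowed a ranking. There the neutrophil-like level (exact 95% Poisson interval 8.24 to 25.3 CPM) was above the columnar one (3.68 to 6.18 CPM), so no columnar expression can be read apart from free RNA in that library.

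The share of cells with a Col17a1 UMI gave the same order. In squamous cells it was 44.4%, 42.2%, 37.0% and 45.7%, against 1.15% to 6.63% in columnar cells and 1.49% to 4.35% in neutrophil-like cells, where 1, 9, 1 and 1 cells had one. Median depths were 2573 to 5587.5 UMIs in squamous, 2141 to 5233 in columnar and 1403 to 2287 in neutrophil-like cells. With each cell thinned to 1000 UMIs, which left out 130 columnar, 25 squamous and 1 neutrophil-like cells of day 6, the squamous shares were 22.2%, 21.6%, 14.4% and 14.1%. The thinned columnar shares were 0.385% to 2.11% and the neutrophil-like ones 0% to 0.771%, so the squamous shares stayed apart from both.

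The start of Col17a1 is shown because this gene carried the largest difference between cell types. Col17a1 lies on the minus strand of chromosome 19, at chr19:47646344-47692094 in GRCm38. The 198 bases before its first transcript start in GENCODE (GRCm38.p6, chr19:47692095-47692292, minus strand) come from a RefSeq promoter window. That window runs on past this start, to 47691993. The 198 bases hold TATAAA 2 times, in capitals, beginning 88 and 39 bases before the GENCODE start.
Col17a1: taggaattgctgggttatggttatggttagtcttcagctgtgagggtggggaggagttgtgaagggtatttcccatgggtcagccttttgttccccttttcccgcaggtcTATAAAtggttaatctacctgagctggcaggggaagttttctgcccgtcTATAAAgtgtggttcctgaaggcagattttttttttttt
Searched on both strands, TATAAA occurred in 13.6% of 32851 full RefSeq windows. It occurred in 9.08% of the windows cut to their first 198 bases. The cut was not aligned to a transcript start, as the Col17a1 stretch is. The shares that follow are of these cut windows. The window held no AP-1 letters (TGANTCA, 5.5% of windows), no GC box (GGGCGG, 24.3% of windows) and no p53-family core pair (CATG 2 times, 6 bases apart, 0.39% of windows). The E-box letters CANNTG occurred 1 time, and 58.7% of windows held them. These letters are a description of the window and carry no measurement of binding.

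Dst was the other gene of the 7 with higher levels in squamous than in columnar cells. It measured 169.9, 188, 114 and 273 CPM in squamous cells and 41.2, 49.9, 48.3 and 58.3 CPM in columnar cells. The ranges did not overlap. Neutrophil-like cells held 13.1, 47.4, 97.0 and 0 CPM, from 2, 44, 6 and 0 UMIs. The gene makes epithelial, muscle and neural isoforms, which these counts do not separate.

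Itga6 was high in both squamous and columnar cells. It measured 626, 1269.9, 537 and 444 CPM in squamous cells and 749, 977, 708 and 594 CPM in columnar cells. Only in day 1 replicate 2 was the squamous value the higher one. Neutrophil-like cells held 256, 394, 469 and 161 CPM, under both classes in each library. Enteroendocrine-like cells held 207 CPM (11 cells) and 298 CPM (17 cells) in replicates 1 and 2 of day 1, under the neutrophil-like values.

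Cd151 was nearly level between the epithelial classes, at 227, 206, 259 and 219.8 CPM in squamous and 240.0, 243, 287 and 220.1 CPM in columnar cells. Columnar cells had the higher value in each library, by small margins. Neutrophil-like cells held 170.4, 153, 210.2 and 188 CPM, not far below.

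Lama3 and Lamb3 divided by library rather than by epithelial class. Squamous cells held 221, 1048, 328 and 94.9 CPM of Lama3, and columnar cells 135, 268, 363 and 203 CPM. Lamb3 was at 159, 855, 164 and 93.8 CPM in squamous and 99.9, 216, 176 and 179 CPM in columnar cells. For both chains the squamous value was the higher one in both day 1 libraries and the lower one on days 3 and 6. Neutrophil-like cells held 45.9, 93.6, 226 and 80.6 CPM of Lama3 and 105, 156, 113 and 26.9 CPM of Lamb3, which on day 1 replicate 1 was above the columnar value.

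Itgb4 could not be measured. The tables held 0, 2 and 0 UMIs of it in day 1 replicate 1, day 1 replicate 2 and day 3, and the day 6 and normal colon tables did not list it. A count of 0 in squamous cells allowed up to 8.09, 2.91 and 2.69 CPM in the first 3 libraries. Itgb4 lies on the plus strand of chromosome 11 at 115974709 to 116008412, where the exons of B230344G16Rik overlap its own on the opposite strand. The span of Galk1, also on that strand, lies 44 bases beyond its end. Whether reads of Itgb4 were lost in counting was not tested, and no level is read from these values.

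**Figure D1:**
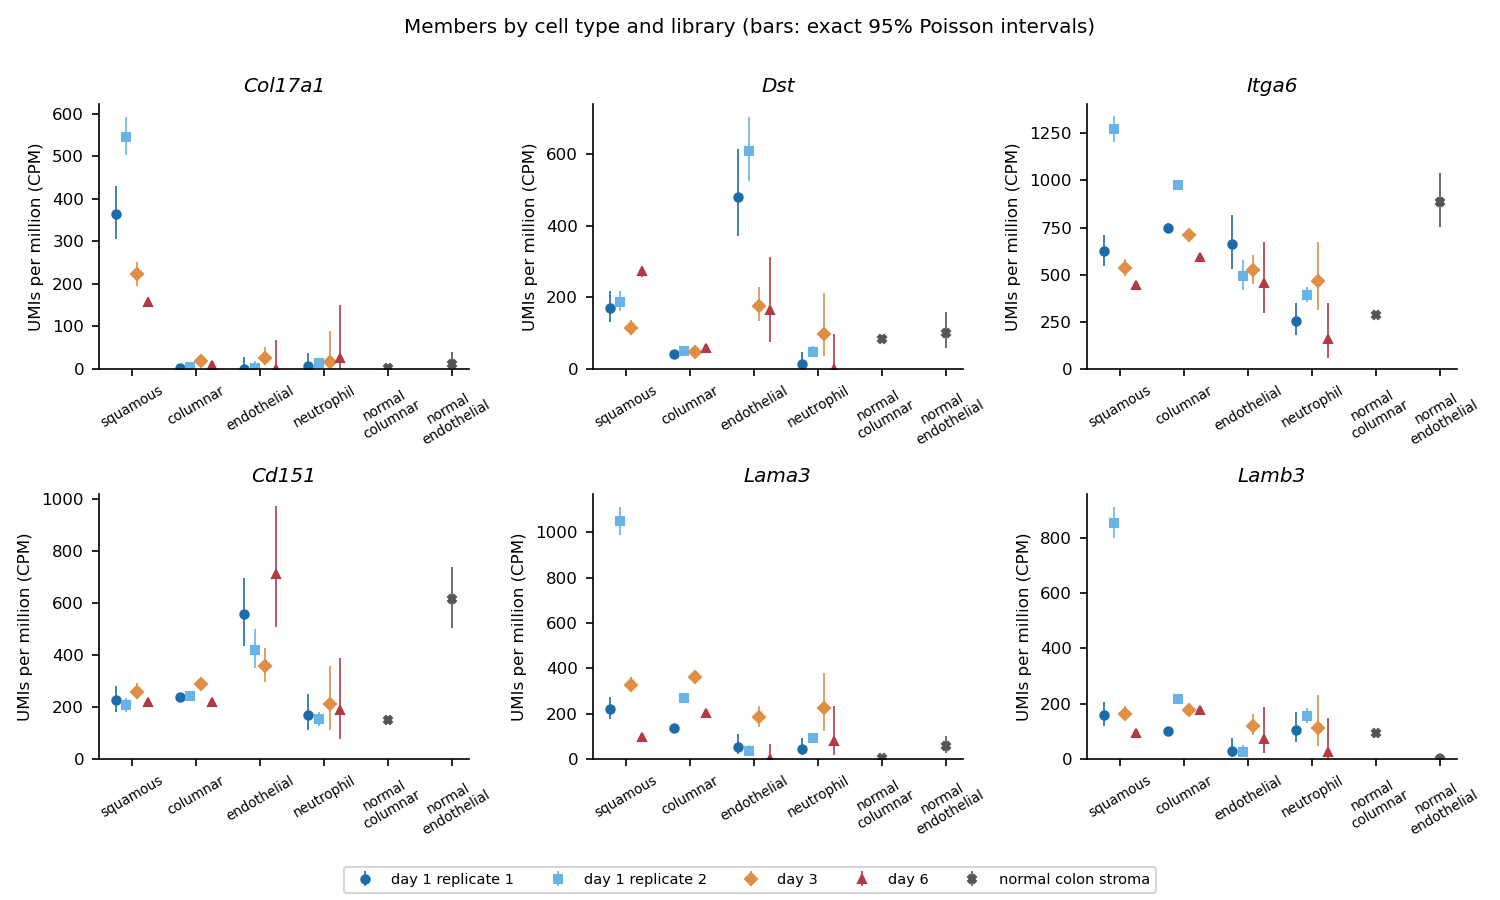
Levels of the 6 measurable genes (CPM, vertical axis from 0) by cell type, with 1 point per library and exact 95% Poisson intervals that cover counting error only. Col17a1 stood apart in squamous cells (157 to 546 CPM), while Itga6 and Cd151 were present in squamous, columnar and endothelial cells.

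The comparison of squamous with columnar tumor cells asked how the 2 epithelial forms of these tumors differ. Of the 6 genes tested, 2 rose in squamous cells and none fell, against 18.8% of all 13703 tested genes called in either direction (8.23% higher). Col17a1 was higher by 5.36 ± 0.70 (log2, SE) with an adjusted p of 0.000979, and Dst by 1.88 ± 0.21 with an adjusted p of 0.000461 (edgeR quasi-likelihood test, 4 libraries, library as a block). Both were higher in 4 of 4 libraries. The part of free RNA in the columnar Col17a1 level was not tested. Without day 3 the Col17a1 value was 6.11, without day 6 it was 5.96, and without day 1 replicate 2 it was 4.71 log2.

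The other genes did not pass. Itga6 gave −0.16 (adjusted p = 0.709), Cd151 −0.10 (adjusted p = 0.761), Lama3 0.36 (adjusted p = 0.683) and Lamb3 0.41 (adjusted p = 0.623) on the log2 scale in the same edgeR test. Without day 1 replicate 2 the Lama3 and Lamb3 values turned to −0.22 and −0.17, so their positive sign rested on that library. The p-values measure only the spread between these libraries, of which each later day has 1.

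Genes of the same pathway were counted from lists. Among 7 hemidesmosome partners, Col7a1, which encodes the collagen of anchoring fibrils, rose by 3.67 log2 (adjusted p = 0.000637, edgeR), and Fermt1, an activator of integrins, fell by 0.90 on the log2 scale. The list median was 0.31, against −0.07 over all genes, of which 8.23% were called higher and 10.6% lower. Col7a1 was at 18.9, 6.80, 17.1 and 13.0 CPM in squamous cells and between 0.55 and 2.05 CPM in columnar cells. Plec, which encodes plectin, was at 283, 451, 497 and 235 CPM in squamous and 229, 309, 539 and 334 CPM in columnar cells, with overlapping ranges.

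Of 10 tetraspanins beside Cd151, none rose and 5 fell in squamous cells, beside 8.23% of all tested genes higher and 10.6% lower. The list median was −0.69. Tspan8 fell by 2.20 on the log2 scale, Tspan1 by 1.87 and Cd82 by 1.01. Tspan8 was also among the markers used to name columnar clusters, so its value is no independent result.

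Of 6 other laminin chains tested, 1 rose in squamous cells, Lamb1 by 2.81 log2, to 29.7, 64.1, 26.0 and 22.4 CPM. Of 11 other basement membrane genes 3 rose and none fell: Col4a5, a chain of collagen IV, by 2.58, Npnt, an integrin ligand, by 1.86, and Agrn by 0.68 log2. Of 8 other epithelial integrins only Itgb5 passed, 0.68 log2 higher. Among 6 proteases acting on laminin-332 or collagen XVII, Bmp1, which processes laminin chains, rose by 1.68 log2 and Adam10 fell by 0.75 on that scale. Over all tested genes 8.23% were called higher and 10.6% lower, so a single call in a list of 6 or 8 genes is not far from those shares.

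Blood endothelial cells had their own pattern. Dst was at 481, 610.4, 177 and 165 CPM there and Cd151 at 556, 421, 357 and 713 CPM, both above columnar cells in each of the 4 libraries. Itga6 was at 661, 494, 523 and 457 CPM, under the columnar value of each library. The day 1 replicate 1 and day 6 values came from 12 and 14 cells.

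The laminin-332 chains were low in endothelial cells. Lama3 was at 52.6, 33.2, 183 and 0 CPM and Lamb3 at 30.1, 26.5, 121 and 73.1 CPM, each under the columnar value of the same library. Both were highest on day 3. Col17a1 had 0, 1, 9 and 0 UMIs in these cells, and its day 3 level, 26.6 CPM, was also the highest. The Lama3 level in endothelial cells was under that of neutrophil-like cells in 3 of 4 libraries and the Lamb3 level in 2 of 4. Part of these rankings rests on very few UMIs and gives no firm order. Endothelial cells of day 1 replicate 1 held 7 UMIs of Lama3 and 4 of Lamb3, and the neutrophil-like Lamb3 level of day 6 (26.9 CPM) was that of 1 UMI. The part of free RNA in the endothelial levels was not tested.

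Against columnar cells, 5 of the 6 tested genes passed in endothelial cells, 2 higher and 3 lower, beside 19% of 12606 genes called (9.84% higher and 9.15% lower). Dst was 2.58 ± 0.36 log2 higher (adjusted p = 2.7e-06) and Cd151 0.80 ± 0.26 higher (adjusted p = 0.0268, edgeR). Lama3 was lower, at −2.06 ± 0.38 (adjusted p = 0.00018), as were Lamb3 at −1.69 ± 0.35 (adjusted p = 0.000688) and Itga6 at −0.68 ± 0.24 (adjusted p = 0.0489, edgeR).

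The Cd151 and Itga6 calls each rested on single libraries. Cd151 lost its call without day 1 replicate 1 (adjusted p = 0.179), day 1 replicate 2 (0.157) or day 6 (0.0552), and Itga6 lost it without day 1 replicate 1 (adjusted p = 0.11), day 1 replicate 2 (0.458) or day 6 (0.0692), all in edgeR. Lamb3 lost its call without day 1 replicate 2 (adjusted p = 0.0556). Dst and Lama3 kept theirs without any one library, although Lama3 was at −2.75 without day 3, where Lamb3 was at −2.43.

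Set against endothelial cells, squamous cells had higher Col17a1 and laminin-332 chains and lower Cd151, with 4 of 6 genes passing beside 22.3% of 8071 genes (10.5% higher and 11.8% lower). Col17a1 was higher by 5.09 ± 0.59 log2 (adjusted p = 2.7e-05), Lama3 by 2.76 ± 0.61 (adjusted p = 0.00516) and Lamb3 by 2.32 ± 0.65 (adjusted p = 0.0206, edgeR). Cd151 was at −0.88 ± 0.25 (adjusted p = 0.0201). Dst, at −0.68 (adjusted p = 0.19), and Itga6, at 0.56 (adjusted p = 0.204), did not pass in edgeR.

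These values moved with single libraries. Without day 3, which held 9 of the 10 endothelial Col17a1 UMIs, Col17a1 was at 7.93, Lama3 at 4.18 and Lamb3 at 3.78 log2, and without day 1 replicate 2 they were at 4.17, 1.59 and 1.05. Lamb3 lost this call without day 1 replicate 2 (adjusted p = 0.135, edgeR), and Cd151 lost it without day 1 replicate 1 (0.119), day 1 replicate 2 (0.063) or day 6 (0.0854). Without day 6, Dst passed at −1.14 (adjusted p = 0.0238, edgeR).

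The other laminin genes ran the opposite way between these cell types. Of 5 other chains tested, 4 rose in endothelial over columnar cells, led by Lamb1 at 5.66 and Lama4, the α chain of vascular laminin-411, at 5.21 log2. The list median was 3.13, against −0.20 over all genes, of which 9.84% were called higher and 9.15% lower. Of 9 other basement membrane genes, 4 also rose there and 1 fell, with Col4a1 at 6.72, Nid1 at 6.29, Col4a2 at 6.13 and Nid2 at 5.88 log2. Of 8 other integrins, 2 rose, with Itga5, the fibronectin receptor chain, at 4.96, and 2 fell, with Itgb8 at −3.35 log2.

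**Figure D2:**
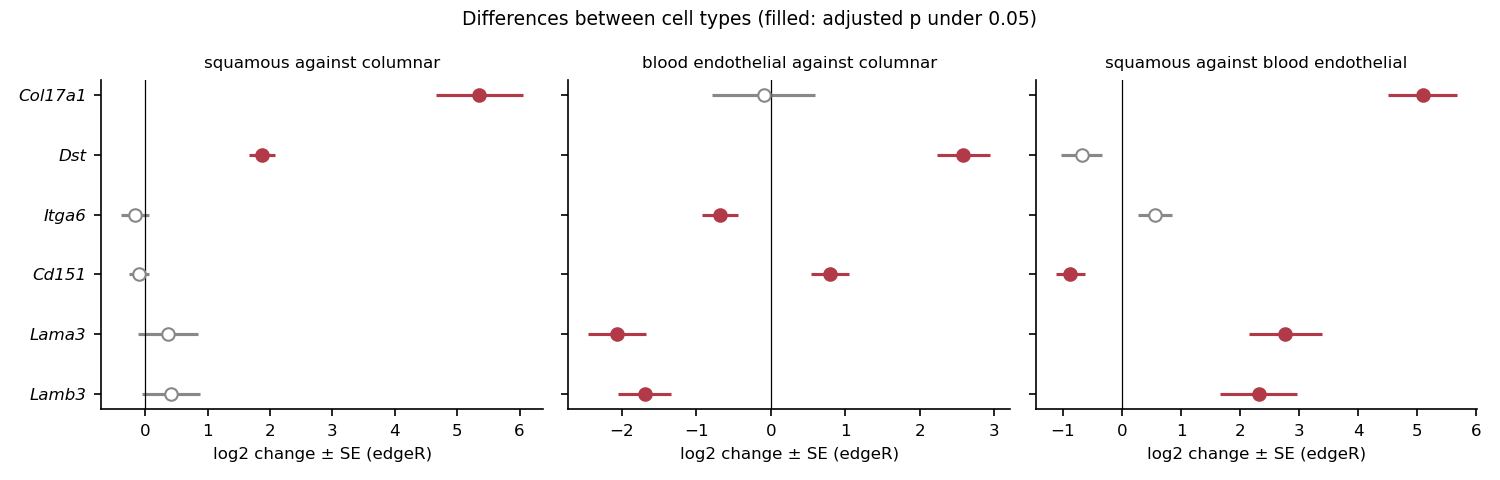
Fitted log2 differences (horizontal axis, ± SE, edgeR) of 6 genes in 3 comparisons of cell types, filled where the adjusted p was under 0.05. Col17a1 stood highest in both comparisons that involve squamous cells (5.36 and 5.09), and Dst stood highest in endothelial against columnar cells (2.58).

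Normal colon gave 1 library, so its values are set beside the tumors without a test, and its dissociation differed. In normal columnar cells Lama3 had 10 UMIs, or 2.73 CPM (exact 95% Poisson interval 1.31 to 5.02), against 135 to 363 CPM in tumor columnar cells. Lamb3 was at 93.4 CPM in normal cells, close under the lowest tumor library at 99.9 CPM. With goblet-like and Paneth-like cells left out, Lamb3 was at 105 CPM in normal colon, above the lowest tumor library (95.3 CPM), so its order depended on the cells joined, and that of Lama3 did not.

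Itga6 was at 287 CPM and Cd151 at 148 CPM in normal columnar cells, both under all 4 tumor libraries. Dst ran the other way, at 84.4 CPM in normal cells, above all 4 tumor libraries. Dst UMIs were widespread in normal colon, in 404 of its 1095 cells. Lymphatic endothelial-like cells there (21 cells) held 180 CPM of Dst. The part of free RNA in the normal columnar Dst level was not tested. Col17a1 had 8 UMIs in normal columnar cells, 2.19 CPM (interval 0.943 to 4.31). In normal endothelial cells Itga6 measured 887 CPM, Cd151 614 CPM, Dst 100.4 CPM and Lama3 55.8 CPM, while Lamb3 had 0 UMIs, which allows up to 16.7 CPM.

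Among tumor columnar clusters Lama3 and Lamb3 varied widely. A Paneth-like cluster of day 1 replicate 2 (488 cells, led by Clca4a and Defa23) held 838 CPM of Lama3 and 585 CPM of Lamb3. A day 3 columnar cluster led by Gprc5a (289 cells) held 606 and 296 CPM of the same genes, and a day 6 cluster led by Ifit1bl1 (436 cells) 493 and 344 CPM. In each of these libraries, that cluster stood above the other columnar clusters with at least 20 cells for both.

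At the low end, a cluster led by Mt4 and Wif1 held 79.2 CPM of Lama3 and 86.0 CPM of Lamb3 in day 1 replicate 2 (224 cells). In normal colon no columnar or goblet-like cluster exceeded 7.72 CPM of Lama3, while Lamb3 ran from 26.0 to 148 CPM. Lama3 was thus near 0 in the normal clusters and Lamb3 was not.

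**Figure D3:**
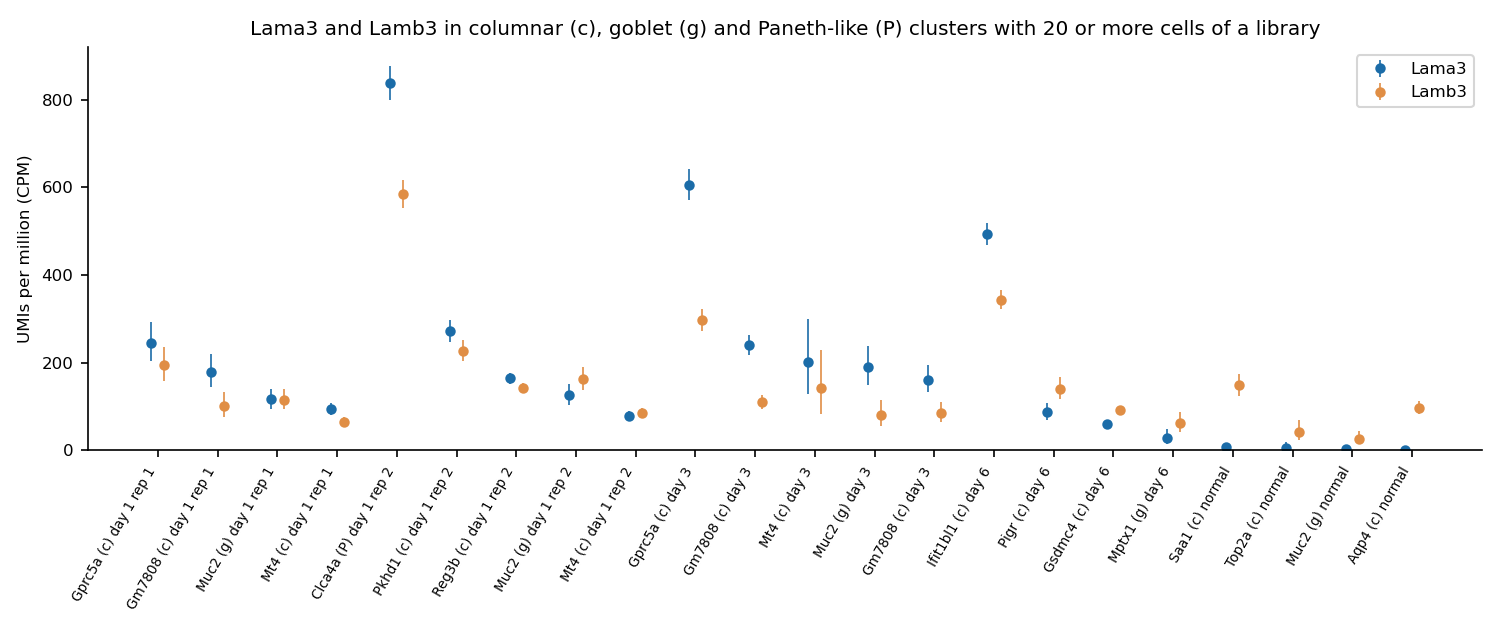
Lama3 and Lamb3 (CPM, vertical axis from 0, exact 95% Poisson intervals) in each columnar, goblet-like or Paneth-like cluster with 20 or more cells of a library, ordered by library and then by Lama3. The Paneth-like cluster of day 1 replicate 2 was highest for both (838 and 585 CPM), and Lama3 lay at or under 7.72 CPM in normal clusters.

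Lama3 and Lamb3 also differed strongly among squamous cells of different libraries, with day 1 replicate 2 high. A squamous cluster led by U90926 and Krt17 occurred in both dual-index tumor libraries. In day 1 replicate 2 (171 cells) it held 1281 CPM of Lama3 and 1041 CPM of Lamb3. In day 6 (99 cells) the same cluster held 119 and 194 CPM. The contrast between these libraries was thus also present within 1 cluster.

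On day 6, with 736 squamous cells, these cells could be divided further. Subclusters were ordered by the summed level of suprabasal keratinocyte markers. Col17a1 was at 325 CPM in the subcluster with the lowest sum (199 cells, led by Dcn and Hpgd) and at 211 CPM in cells led by histone genes and Mki67 (68 cells). It was at 169.7 CPM in Krt16-led cells (62 cells), 46.6 CPM in cells led by Hsd11b2 and Krt10 (147 cells), 77.5 CPM in Sptssb-led cells (196 cells) and 29.5 CPM in Psca-led cells (57 cells), which had the highest suprabasal sum. The Krt10 subcluster also had columnar genes such as Zg16, Gsdmc4 and Lypd8 among its leading genes, a summed columnar marker level of 9133 CPM against 2724 to 5194 CPM in the other 5, and a shallow median depth (1442 UMIs over all libraries).

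Dst had a like order, from 559 CPM in the Dcn-led to 36.0 CPM in the Psca-led cells. Lamb3 was at 129, 117 and 179 CPM in the 3 subclusters with the lowest suprabasal sums and at 33.9, 46.0 and 40.9 CPM in the others. Itga6 was highest in the Krt16-led cells, at 783 CPM, and ranged from 225 to 539 CPM elsewhere. Cd151 stayed within 165 to 231 CPM and Lama3 within 63.5 to 109.7 CPM. These subclusters come from 1 library and are a description with no test.

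**Figure D4:**
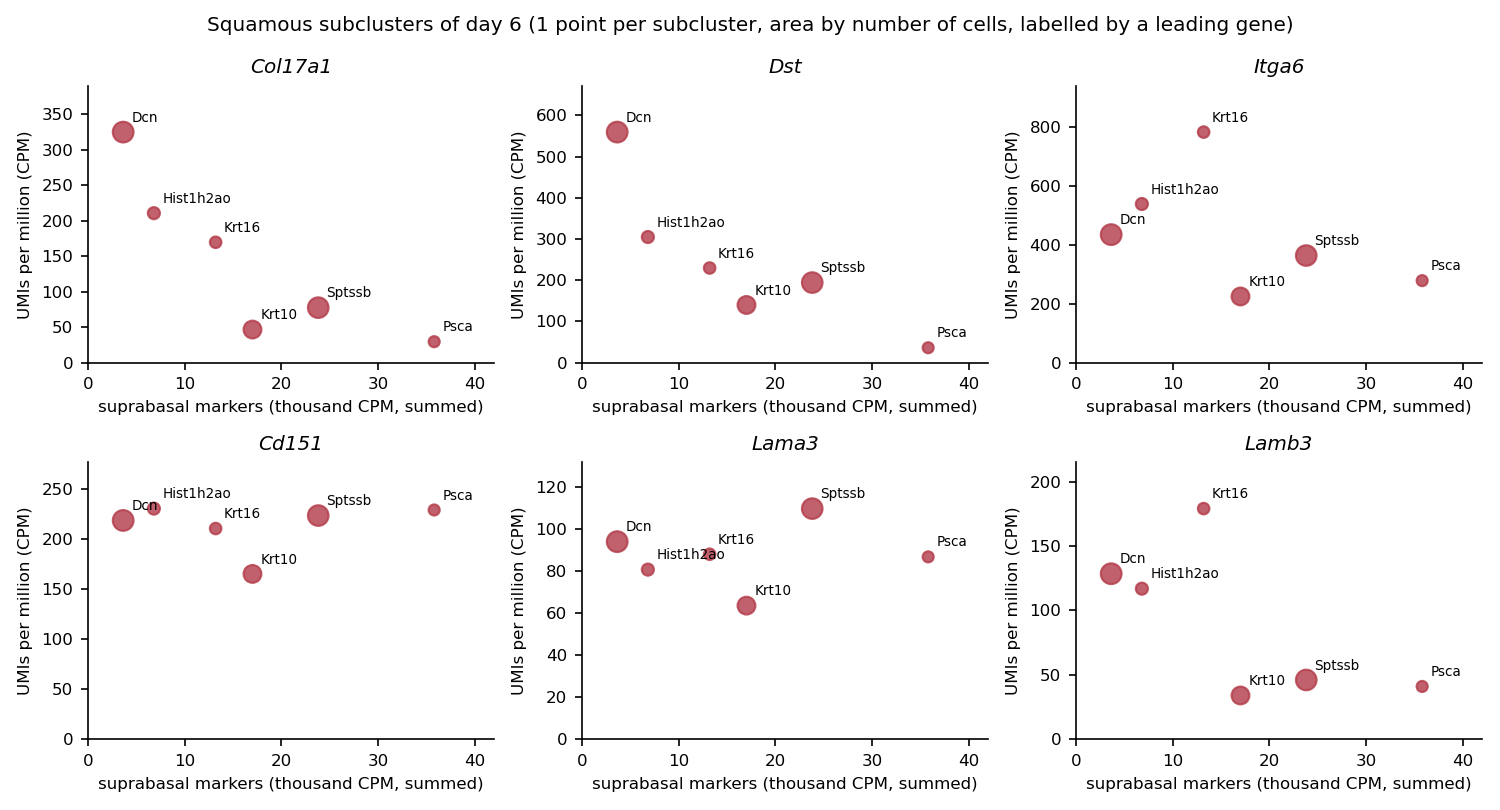
Levels of 6 genes (CPM, vertical axis from 0) in the 6 squamous subclusters of day 6 against the summed suprabasal marker level (horizontal axis, in units of 1000 CPM), with point area by number of cells. Col17a1 went from 325 to 29.5 CPM and Dst from 559 to 36.0 CPM between the ends, while Cd151 stayed between 165 and 231 CPM.

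The late against early comparison asked whether levels differed between day 1 and days 3 and 6. In columnar cells none of the 6 tested genes passed, beside 0% of 13588 genes in edgeR. At an unadjusted p under 0.05, 1923 genes lay below the threshold, and DESeq2 called 512. In squamous cells none of the 6 passed either, beside 0% of 9750 genes, with 395 genes at an unadjusted p under 0.05 and 20 called by DESeq2. In endothelial cells none of 5 passed, beside 0.0596% of 5037 genes.

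In squamous cells, Col17a1 and Itga6 had both late values under both early ones. Their fitted late against early values were −1.12 (adjusted p = 0.999) and −0.82 on the log2 scale. Lama3 gave −1.46 and Lamb3 −1.86, with late values between or under the early ones, and without day 1 replicate 2 Lama3 gave 0.15. Dst, at 0.24, and Cd151, at 0.30, lay near 0.

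Within each library structure the squamous values differed in size. For single-index libraries (day 3 against day 1), the log2 difference was −0.66 for Col17a1, −0.21 for Itga6, 0.53 for Lama3 and 0.04 for Lamb3. For dual-index libraries (day 6 against day 1), it was −1.67 for Col17a1, −1.48 for Itga6, −3.22 for Lama3 and −2.94 for Lamb3. Col17a1 and Itga6 kept a negative sign in both structures, whereas the laminin chains did so only in the dual-index pair. Other markers moved with these values. In the subcluster that held most single-index squamous cells, summed columnar markers were at 2491 CPM on day 1 and 6492 CPM on day 3, Krt14 was at 8042 and 4435 CPM, and Col17a1 at 439 and 223 CPM. On day 6, the 3 subclusters with Col17a1 under 100 CPM held 196, 147 and 57 of the 736 squamous cells. The part of these markers in the day values was not tested. Day and structure cannot be told apart within the late group, since days 3 and 6 had 1 library each.

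In columnar cells the fitted values were 0.86 for Lama3, 0.56 for Lamb3, 0.61 for Dst, 0.44 for Cd151 and −0.03 for Itga6 on the log2 scale. Col17a1 gave 2.39 ± 0.67 (adjusted p = 0.257 in edgeR, 0.0335 in DESeq2), on the 6, 61, 90 and 80 UMIs given above. Columnar Itga6 also had both late CPM values under both early ones, at −0.08 (single index) and −0.70 (dual index) log2. Between the single-index and dual-index pairs, signs differed for Lama3 (1.31 and −0.37), Lamb3 (0.71 and −0.24) and Cd151 (0.24 and −0.13). They were positive in both for Col17a1 (0.84 and 0.22) and Dst (0.16 and 0.16). With columnar clusters only, the dual-index values of Lama3 and Lamb3 were 0.45 and 0.40. In endothelial cells Dst gave −1.52 (adjusted p = 0.481, edgeR), with both late values under both early ones, and Lamb3 gave 2.05, with both late values above both early ones. Without day 6, which had 14 such cells, Lama3 at 2.41 (adjusted p = 0.00292) and Lamb3 at 2.36 (adjusted p = 0.00858) passed in edgeR. Neutrophil-like Lama3 was also higher on day 3 (226 CPM) than in both day 1 libraries (45.9 and 93.6 CPM), and its part in this was not tested. No gene of the pathway lists passed in any late against early test.

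**Figure D5:**
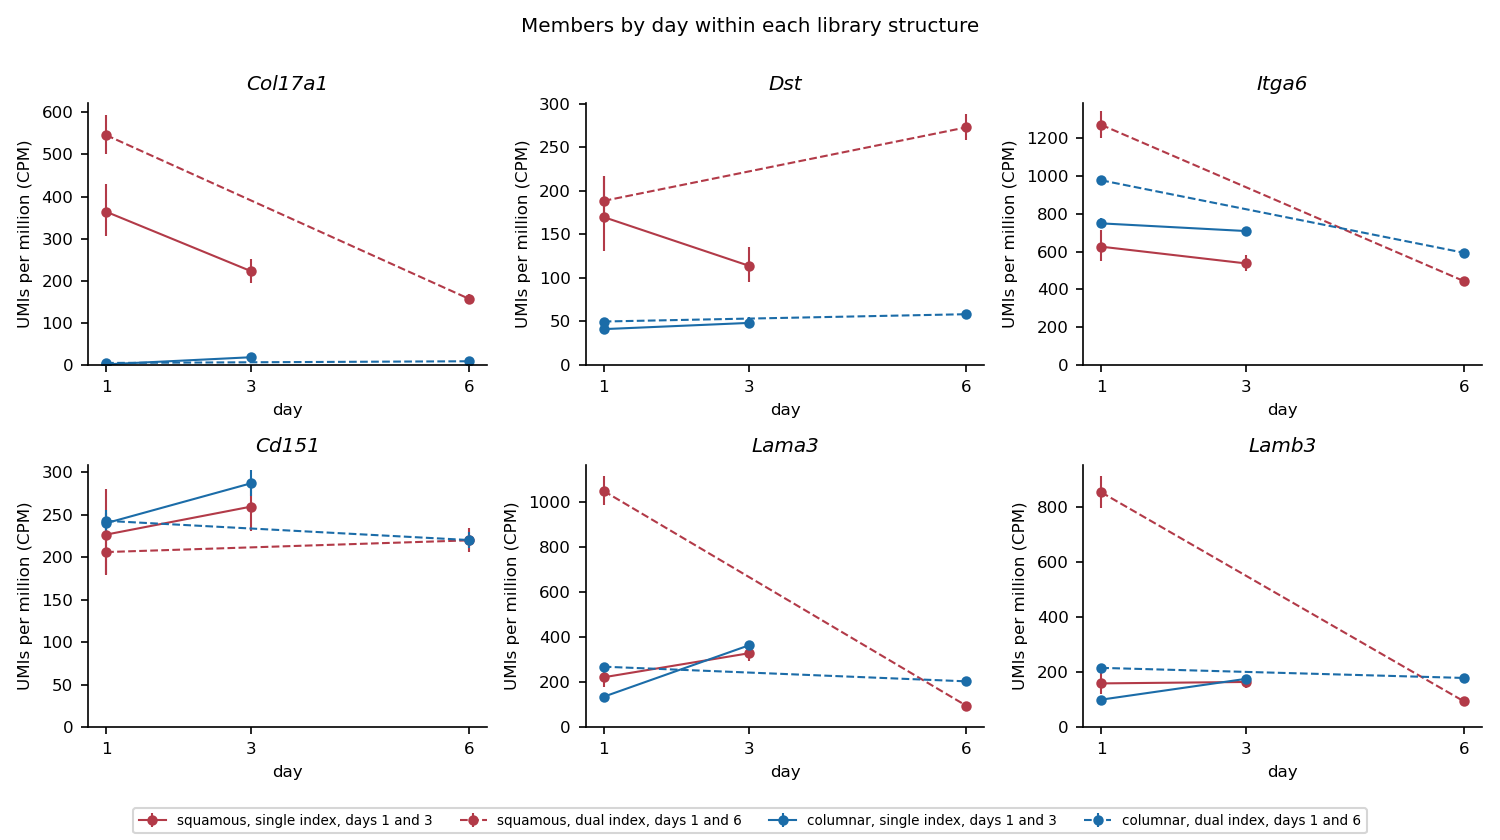
Levels of 6 genes (CPM, vertical axis from 0, exact 95% Poisson intervals) against day, with lines joining libraries of 1 structure, in squamous and columnar cells. The dual-index squamous line drops for Lama3 (1048 to 94.9 CPM) and Lamb3 (855 to 93.8 CPM), and the single-index line does not (221 to 328 and 159 to 164 CPM).

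The difference of the day values between squamous and columnar cells was tested directly. Col17a1 was 1 of 2 genes called (0.0146% of 13703), at −3.57 ± 0.41 log2 (adjusted p = 0.0415, edgeR), with squamous cells lower and columnar cells higher late than early. The part of free RNA in the columnar side was not tested. The call was lost without day 1 replicate 1 (−3.30, adjusted p = 0.191) and without day 1 replicate 2 (−4.00, adjusted p = 0.498, edgeR), at clustering resolution 2 (adjusted p = 0.0628) and without the columnar cluster led by Wnt target genes (adjusted p = 0.13). Lama3, at −2.26 (adjusted p = 0.248), and Lamb3, at −2.17 (adjusted p = 0.267), did not pass in edgeR and did in DESeq2 (adjusted p = 0.0304 and 0.0488).

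Likeness of pattern was described over 52 sums of a library and a cell type and 11423 genes, as the Pearson correlation of log2(CPM + 20). The sums share libraries and depth, so no p is given. Col17a1 was most like Duoxa1 (0.95) and Lypd3 (0.92), and Dsc2 was among the 2 genes most like Lamb3 (0.81). Sh3bgrl2 was among the 2 most like Itga6 (0.85), and Cwh43 among the 2 most like Lama3 (0.84). Dst was nearest to Rab12 (0.79) and Pros1 (0.78), and Cd151 to Fkbp1a (0.83) and Actn4 (0.82).

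Among the genes themselves the closest pair was Lama3 and Lamb3 (0.80), followed by Lama3 and Itga6 (0.74) and by Itga6 and Lamb3 (0.69). Dst and Lama3 were weakly opposed (−0.19). The mean of the genes was most like Ppp1r13l (0.81), Anxa2 (0.79), Jup (0.78), Epha2 (0.78) and Plec (0.78).

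Reads of overlapping genes could not be separated by position here. Itgb4, Lama3, Dst and Cd151 have exons overlapped by genes on the opposite strand (B230344G16Rik for Itgb4, Gm29200 for Lama3, Gm26788 and A930005N03Rik for Dst, Gm10575 for Cd151). Lamb3, on chromosome 1 at 193207699 to 193343878, holds G0s2 and Hsd11b1 within its span on the opposite strand with no exon in common, and G0s2 was at 891, 419.8, 259 and 1531 CPM in neutrophil-like cells. The part of these neighbours in the levels was not tested.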

How the data were processed

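Cells of 4 AOM/DSS tumor libraries and 1 normal colon library were measured by inDrop. The authors aligned reads with dropEst to mouse GRCm38 and deposited raw UMI counts per cell and gene. The study describes the day 1 libraries as biological replicates; each other group is 1 library. The 7 genes and the lists were chosen with earlier results of these data known.

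Cells with at least 500 genes and at most 15% mitochondrial UMIs were kept, following the study. Leiden clusters (leidenalg 0.10.2, 20 components, 2000 variable genes, 20 neighbours, resolution 1) were built without 59 gene names of the lists, separately for tumors and normal colon. They were named where at least 3 markers stood out. The rule was loosened, after the clusters were seen, for columnar clusters, among them one led by Wnt target genes. The looser rule also named 1 squamous cluster of day 6 (151 cells, led by Calm4 and Krt10). At resolution 0.5 the squamous class of day 6 held 586 cells. Scrublet called under 0.5% of cells and so did not work; an alternative removed the 6% of cells with the highest scores.

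Counts were summed per library and type (at least 10 cells) and tested with edgeR 4.0.16 (TMM, filterByExpr, quasi-likelihood, Benjamini-Hochberg over all tested genes, threshold 0.05; R 4.3.3), with library as a block between cell types. DESeq2 1.42.0 was an alternative. The tests were checked on simulated counts with genes changed by 2 log2, at the estimated dispersion. Late against early called 37 of 193 changed genes in columnar, 36 of 197 in squamous and 37 of 187 in endothelial cells. The test of the difference called 71 of 198. Comparisons of cell types called 189 of 199 (squamous against columnar), 136 of 195 (endothelial against columnar) and 187 of 199 (squamous against endothelial). Within-structure differences are of log2(CPM + 20). Named genes were the 7, at most 8 list genes per comparison by size of change (others named for their role were chosen after their values were seen), the 2 most alike per gene and 5 for their mean; some genes under this rule are not reported here. Intervals are exact Poisson (95%) and, like the limit of 3 counts for a 0, cover counting error only. Promoters matched 4 of the 7 genes.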

Additional observations from a re-analysis of the deposited data

Results flagged for a closer look

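The late against early value of Col17a1 differed between squamous and columnar tumor cells by −3.57 log2 (adjusted p = 0.0415 in edgeR's interaction test). The call was lost without either day 1 library (adjusted p = 0.191 and 0.498, edgeR), at clustering resolution 2 (0.0628) and without the columnar cluster led by Wnt target genes (0.13). Squamous levels were 364 and 546 CPM early and 223 and 157 CPM late, and columnar levels were 1.53 and 4.81 CPM early and 18.4 and 8.85 CPM late. Neutrophil-like cells of the same libraries were at 6.55, 15.1, 16.2 and 26.9 CPM, from 1, 14, 1 and 1 UMIs. All immune-like cells summed were at 2.15, 12.4, 13.0 and 18.2 CPM. The part of free RNA in this difference was not tested.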

How the results depend on the processing

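Depth and few libraries limit these results: 3 residual degrees of freedom stood behind each comparison of cell types and 2 behind each other one. No paired analysis was possible because the labels number only the day 1 libraries; a block of index structure, which joins 1 early with 1 late library, is a separate alternative below. Alternatives on the columnar class (columnar clusters only; without the Wnt target-led cluster; without a shallow day 3 cluster) were chosen after seeing the data. Of values for single genes, 546 kept direction and side of the threshold, 14 gained and 29 lost a call and 20 changed sign. Of counts, normal colon values and median levels by cell type, 250 stayed within their limit and 72 did not. The limit was 1.5 times for counts, the Poisson interval for normal colon and the SD between libraries for median levels. The cause of a change was not tested unless stated.

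Leaving out 1 library at a time gave 1527 to 2126 genes called for squamous against columnar, 1379 to 2902 for endothelial against columnar, 897 to 1936 for squamous against endothelial, and 9 to 1051 (columnar), 0 to 52 (squamous), 0 to 637 (endothelial) and 0 to 774 (difference between squamous and columnar) for late against early. Of the 6 genes, 2 to 5 were then called for endothelial against columnar, 2 to 4 for squamous against endothelial, 0 to 2 for late against early in endothelial cells and 0 to 3 for the difference.

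Thinned to 1000 UMIs, the 3 comparisons of cell types called 1468, 860 and 547 genes, and without the library block 793, 914 and 671. Endothelial against columnar then called 3 of the 6 genes thinned and 1 without the block, and squamous against endothelial 1 without it. Thinning gave Lamb3 −0.037 for squamous against columnar, and in normal columnar cells 0 CPM for Col17a1 and Lama3, 118 for Lamb3 and 113 for Dst.

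For late against early in columnar cells, DESeq2 called 512 genes, no filter on low counts 949, thinning 1, structure as a block 266 and day as a covariate 18; DESeq2 and no filter each called 1 of the 6, Col17a1. In squamous cells DESeq2 called 20, no filter 91 and structure as a block 37. In endothelial cells DESeq2 called 15 and no filter 53, while cell-by-cell calls, removal of the highest Scrublet scores, thinning, the structure block and the day covariate called 0.

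For the difference, edgeR with DESeq2 size factors and cell-by-cell calls gave 7 genes each, DESeq2 62, no filter 314, resolution 0.5 8, the Scrublet removal 18, thinning 52, columnar clusters only 4, and without the shallow cluster 5. Resolution 2 and leaving out the Wnt target-led cluster gave 0 genes and 0 of the 6 (Col17a1 adjusted p = 0.0628 and 0.13, edgeR). DESeq2 and no filter called 3 of the 6 and thinning 2.

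Signs changed for some values. Leaving out 1 library at a time, squamous against columnar ran from −0.38 to 0.036 for Itga6 (positive without day 6) and from −0.22 to 0.98 for Lama3 and −0.17 to 1.00 for Lamb3 (negative without day 1 replicate 2). Endothelial against columnar Col17a1 ran from −1.30 (without day 3) to 0.11, with 0.06 and 0.09 without day 1 replicates 1 and 2, and was 0.020 without the Wnt target-led cluster and 0.23 without the block. Late against early, columnar Itga6 ran from −0.15 to 0.12, positive without day 1 replicate 2 and without day 6 (0.05), and was 0.028 with columnar clusters only. Squamous Lama3 ran from −2.69 (without day 3) to 0.15 (without day 1 replicate 2), and Dst from −0.47 (without day 6) to 0.70. Endothelial Itga6 ran from −0.29 to 0.14, positive without day 1 replicate 1 and without day 6 (0.11), and Cd151 from −0.20 (without day 6) to 0.64, with −0.54 thinned. For the difference, thinning gave Dst 0.0094 and Cd151 0.055.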
